A study of Mus musculus with 18 samples.

Results

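The genes described here are 10 heat shock chaperones, namely Hspa1a, Hspa1b, Hspa8, Hsph1, Hspa4l, Dnajb1, Dnaja1, Hsp90aa1, Hspd1 and Hspe1, out of 54532 genes in the count tables. They were taken by gene name in all 18 libraries. The 10 names had been chosen from gene counts of these same libraries in earlier work, and the comparison that chose them is not recorded. Their values are therefore given as a description, with a fold change and its standard error (SE) and without a p-value, and counts of members past a threshold support nothing.

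Heat shock chaperones hold unfolded proteins and help them to fold, and the cell makes more of them when heat, oxidants or inflammation damage its proteins. HSP70 proteins bind and release stretches of unfolded chain, J-domain proteins (HSP40) deliver the clients, HSP110 proteins exchange the nucleotide, and HSP90 matures kinases and receptors downstream. HSPD1 and HSPE1 form the barrel and the lid of the folding chamber in mitochondria. Heat shock factor 1 (HSF1) drives the inducible members by binding alternating repeats of GAA and TTC in their promoters. In the gut, HSP70 is known as a protein of the surface epithelium that is raised by bacterial products and protects the barrier.

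All mice were C57BL/6. Colitis was produced by 2.5% dextran sulfate sodium (DSS, a polymer that damages the colon epithelium) in the drinking water for 5 days and then 2 days of plain water, and a 0.5 cm piece of distal colon was taken. Tumours were colorectal tumours of the azoxymethane (AOM, a colon carcinogen) and DSS model. Each tissue had 4 groups: Il1f5+/+ and Il1f5-/- mice, and Il1f9+/+ and Il1f9-/- mice, called WT and KO of the Il1f5 and Il1f9 lines. Il1f5 encodes the antagonist of the IL-36 receptor and Il1f9 encodes IL-36 gamma, 1 of its agonists. The 2 Il1f5 colitis groups had n = 3 libraries and the other 6 groups n = 2. Age, the AOM dose, the way each allele was made and whether animals were pooled are not given in the labels, so the p-values measure the spread between these libraries.

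The targeted genes were checked first. Il1f9 had 90 to 232 counts in colitis WT libraries of its line against 1 to 9 in KO, and 752 to 1652 against 0 to 2 in tumours. Il1f5 had 0 counts in all Il1f5 WT libraries of both tissues, but 36 to 45 counts in the colitis libraries labelled Il1f5 KO and 102 to 211 in the tumour libraries so labelled. Il1f5 also had 0 counts in all Il1f9 WT and Il1f9 KO libraries of both tissues. Only the libraries labelled Il1f5 KO thus held Il1f5 counts. These counts go against that label, and the reason was not tested. The group is called "labelled Il1f5 KO" throughout, and every direction of the Il1f5 comparison rests on the labels. Library totals ran from 16621611 to 23776174 counts. All colitis libraries share 1 table, while the tumours of each line are in a table of their own, so that line and table cannot be told apart in tumours, nor tissue and table between tissues. Expression is given in CPM (counts divided by a library size that TMM scales to a common reference), as mean ± SD.

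Promoter sequences of 8 of the 10 members were found in the RefSeq table used here (assembly GRCm38.p6). They are shown because Hspa1a and Hspa1b, the inducible HSP70 pair, moved together and have nearly the same promoter. They are also shown because 1 stretch lies before a listed start of both Hspd1 and Hspe1. Each runs 5′ to 3′ on the strand of its gene, with capitals on a match to alternating GAA and TTC repeats, and Hspa1a, Hspa1b and Hspe1 show the 250 bases before the start.
Hspa1a, chr17:34972157-34972406, minus strand: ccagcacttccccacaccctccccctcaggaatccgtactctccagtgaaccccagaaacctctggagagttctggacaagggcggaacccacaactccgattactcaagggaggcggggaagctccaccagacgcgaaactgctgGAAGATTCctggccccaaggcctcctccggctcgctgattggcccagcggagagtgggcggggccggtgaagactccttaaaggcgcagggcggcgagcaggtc
Hspa1b, chr17:34959239-34959488, minus strand: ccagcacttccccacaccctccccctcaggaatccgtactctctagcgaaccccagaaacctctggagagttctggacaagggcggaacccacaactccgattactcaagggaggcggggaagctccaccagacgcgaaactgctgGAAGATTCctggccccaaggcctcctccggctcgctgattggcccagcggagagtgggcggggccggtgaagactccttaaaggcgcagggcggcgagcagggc
Hspe1, chr1:55087898-55088147, plus strand: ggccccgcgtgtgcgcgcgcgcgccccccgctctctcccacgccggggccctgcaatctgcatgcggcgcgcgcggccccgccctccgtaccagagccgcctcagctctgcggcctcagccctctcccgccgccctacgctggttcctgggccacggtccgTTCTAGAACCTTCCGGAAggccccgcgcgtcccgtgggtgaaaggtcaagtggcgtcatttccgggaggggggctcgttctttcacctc
Hsph1, chr5:149636279-149636308, minus strand, 30 bases after the start: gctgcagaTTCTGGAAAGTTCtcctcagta

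The printed bases of Hspa1a and Hspa1b differ at 3 of 250 positions, C44T, T47C and T249G, with the base of Hspa1a first and positions counted from 1 at the first printed base. Both hold a match of 2 units, GAANNTTC, 104 to 97 bases before the start. In Hspe1 the capitals mark overlapping matches of 3 units 89 to 72 bases before the start, and the same stretch lies on the other strand 144 to 127 bases before 1 of the 2 listed starts of Hspd1. In Hsph1 a match of 3 units lies 16 to 28 bases after a start, which is 1 of 2 listed. A match of 3 units (GAANNTTCNNGAA or TTCNNGAANNTTC, either strand, 250 bases before to 50 after a start) was found in 3 of the 8 members in the table and in 0.662% of 27025 genes. Matches of 2 units (GAANNTTC or TTCNNGAA, which the longer motif contains) were found in 6 of 8 members, all but Hspa4l and Dnajb1, and in 16.97% of genes. Both counts of members include the 1 stretch shared by Hspd1 and Hspe1 for each of these genes. The count for 2 units also includes the nearly equal promoters of Hspa1a and Hspa1b. The members counted are therefore not all separate sequences. A match is a run of letters and not a measured binding site.

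On the GRCm38 annotation, whose coordinates match those deposited for all 10 members, Hspa1a and Hspa1b lie side by side on chromosome 17 (34969190 to 34972156 and 34956436 to 34959238, both on the minus strand). Their transcripts were identical at 93.6% of 2735 aligned bases, and 38.1% of stretches of 150 bases of Hspa1a occur whole in Hspa1b, so the split of reads between them is uncertain. The library kit does not mark strand, so reads of overlapping genes cannot be told apart: Gm20481 overlaps Hspa1a, Smu1 and Gm6297 overlap Dnaja1, and Hspd1 (chromosome 1, 55077835 to 55088243) and Hspe1 (55088132 to 55091307) overlap head to head. Hsph1 lies on chromosome 5 (149614287 to 149636376), Hspa4l on chromosome 3 (40744495 to 40796103), Dnaja1 on chromosome 4 (40722150 to 40737149), Dnajb1 on chromosome 8 (83608193 to 83612653), Hspa8 on chromosome 9 (40800984 to 40810087) and Hsp90aa1 on chromosome 12 (110690605 to 110702728).

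Per deposited gene length, on the authors' FPKM scale, Hspa8 had the highest median level over the 18 libraries at 529 FPKM. Hspd1 (160.3), Hsp90aa1 (135) and Hspe1 (119.7) came next, then Dnaja1 (32.7), Dnajb1 (25.9), Hspa1b (23.8) and Hsph1 (19.1). Hspa1a (7.77 FPKM) and Hspa4l (5.89 FPKM) had the lowest medians. The order depends on the deposited lengths, which were 11792 bases for Hspa4l and 8629 for Dnaja1. The library ranges of neighbours in this order overlapped, except between Hspa8 and Hspd1 and between Hspe1 and Dnaja1. The order of level was not the order of variation. Between its lowest and highest library, Hspa1a varied 21.0-fold in CPM and Hspa1b 14.8-fold, while the other 8 members varied from 2.43-fold (Hspd1) to 4.58-fold (Hsph1). The lowest library was a colitis library labelled Il1f5 KO for 7 of the 10 members. For Hspa1a and Hspa1b it was an Il1f5 WT tumour, and for Hsph1 the Il1f9 KO tumour 2.

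**Figure D1:**
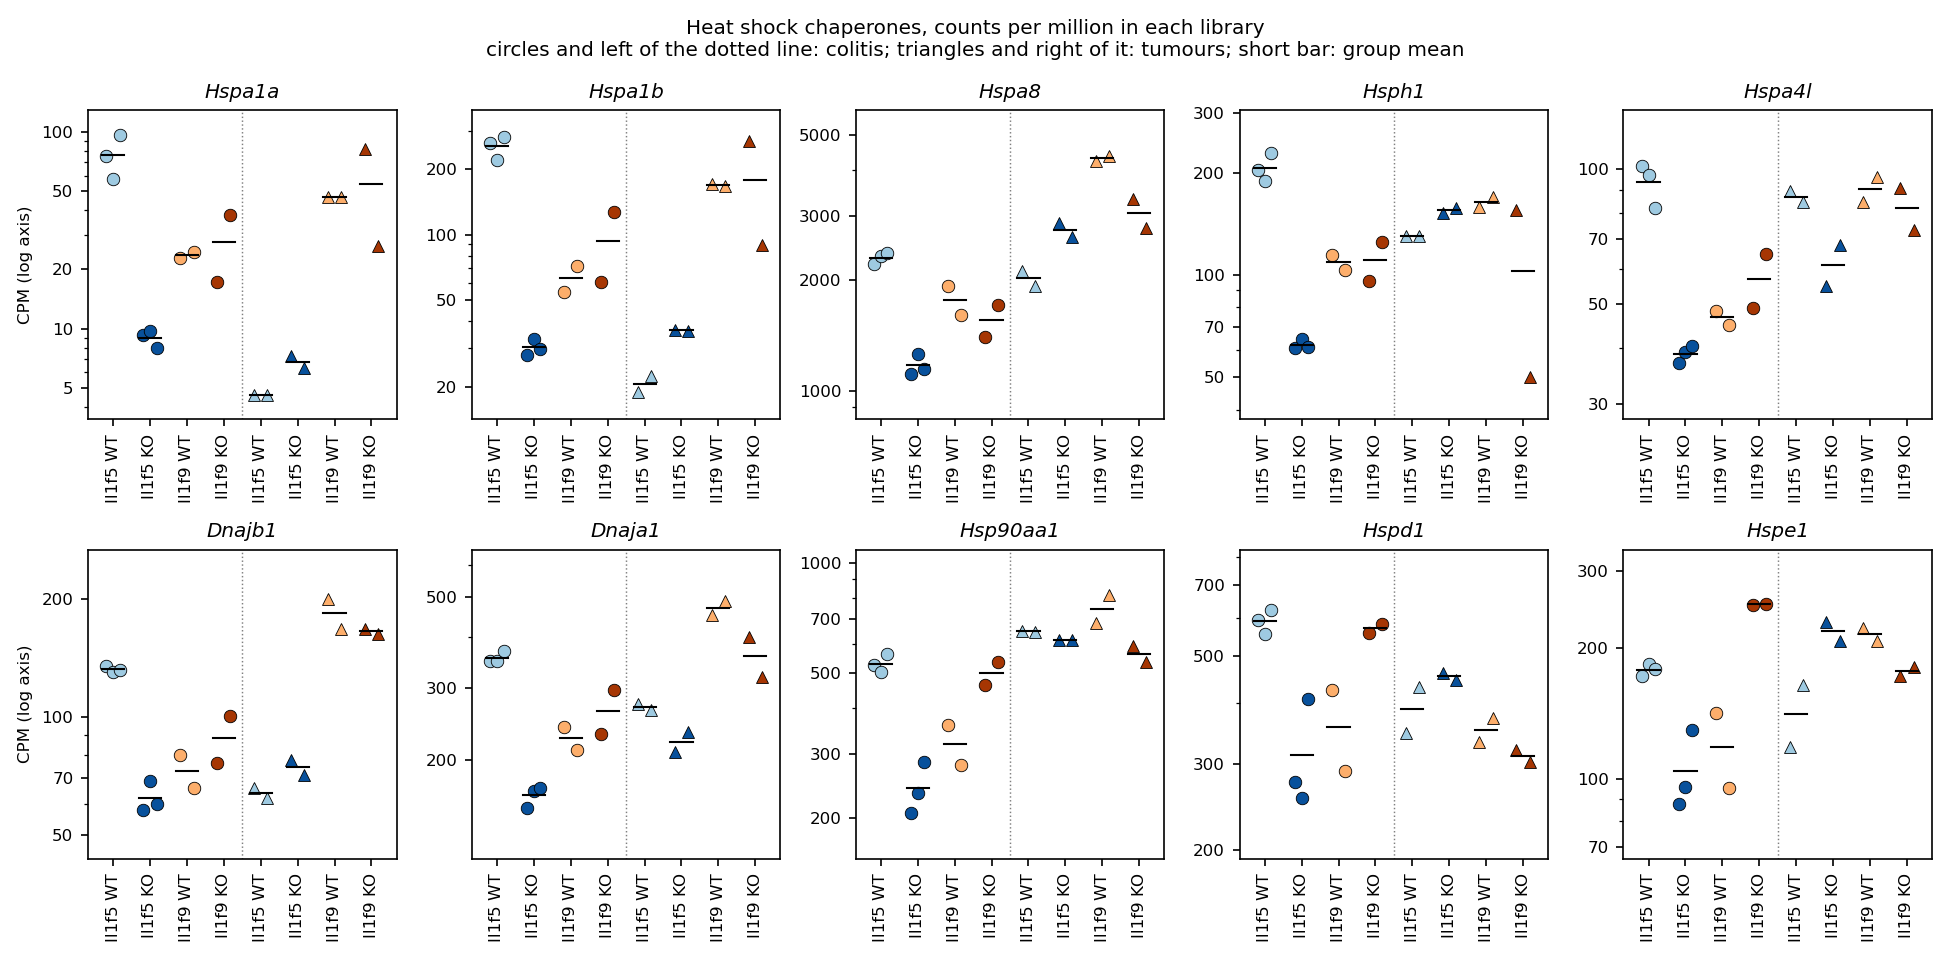
CPM (log axis) of each chaperone in each of the 18 libraries, colitis as circles and tumours as triangles, with a short bar at each group mean. Hspa1a runs from 4.61 to 96.6 CPM, and in colitis all 10 genes are lower in the 3 libraries labelled Il1f5 KO than in the 3 Il1f5 WT libraries.

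In colitis, all 10 chaperones were lower in the libraries labelled Il1f5 KO than in Il1f5 WT, and for none of them did the libraries of the groups overlap. The inducible HSP70 genes had the largest fold changes and the mitochondrial pair the smallest. By its labels the comparison asks how injured colon differs between Il1f5+/+ and Il1f5-/- mice. The Il1f5 counts of the labelled KO libraries go against their label. In edgeR's quasi-likelihood test, 10 of 10 members passed as lower, against 11.0% of all genes tested, and 10 of 10 were without overlap as lower, against 22.3% of genes. The members' median log2 fold change was -1.12, against -0.01 over all genes. In these pieces of tissue, fewer cells of a type and less RNA per cell cannot be told apart.

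Hspa1a and Hspa1b encode the same stress-induced HSP70 protein, which is scarce in rested cells. Hspa1b stood at 262, 221 and 279 CPM in the 3 Il1f5 WT colitis libraries and at 27.9, 33.0 and 29.9 CPM in the 3 labelled KO. Hspa1a stood at 75.2, 57.5 and 96.6 CPM in WT and at 9.29, 9.76 and 7.96 CPM in labelled KO. Every labelled KO library was thus far below every WT library for both genes. The ratio of means was 8.40 for Hspa1b (254 ± 30.2 against 30.3 ± 2.56 CPM, n = 3 each) and 8.49 for Hspa1a (76.4 ± 19.6 against 9.004 ± 0.93 CPM, n = 3 each). On the log2 scale these are -3.07 ± 0.26 and -3.08 ± 0.31 (SE). Hspa8 encodes the HSP70 of unstressed cells, which also uncoats clathrin vesicles. It had 2224, 2328 and 2371 CPM in WT and 1114, 1263 and 1149 CPM in labelled KO, a log2 fold change of -0.97 ± 0.12 (SE).

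The HSP110 genes came next in size. Hsph1 encodes HSP105, which exchanges nucleotide on HSP70 and helps it to dissolve aggregates. It was at 203, 188 and 229 CPM in WT and at 60.7, 64.8 and 61.1 CPM in labelled KO, 3.32 times lower on the means and -1.73 ± 0.11 (SE) on the log2 scale. Hspa4l, a relative of Hsph1, was at 101, 97.3 and 81.8 CPM in WT and at 37.0, 39.1 and 40.4 CPM in labelled KO, a log2 fold change of -1.27 ± 0.11 (SE). Both genes kept narrow ranges within the labelled KO group.

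The J-domain genes and Hsp90aa1 were all a little over 2 times lower. Dnajb1, the inducible J-domain partner of HSP70, had 135, 131 and 132 CPM in WT and 58.1, 68.7 and 60.2 CPM in labelled KO (log2 fold change -1.09 ± 0.11, SE). Dnaja1, a J-domain protein made also without stress, had 349, 349 and 369 CPM against 153, 167 and 171 CPM (-1.12 ± 0.10). Hsp90aa1, the inducible HSP90 of the cytosol, had 525, 501 and 561 CPM against 206, 234 and 285 CPM (-1.13 ± 0.13). None of these 3 genes showed overlap between the groups.

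Hspd1 and Hspe1, the mitochondrial chaperonin and its lid, differed least, and library 3 of the labelled KO group was the highest of its group for both. Hspd1 was at 593, 554 and 621 CPM in WT and at 276, 256 and 408 CPM in labelled KO, a log2 fold change of -0.91 ± 0.18 (SE). Hspe1 was at 172, 183 and 179 CPM in WT and at 87.6, 95.9 and 129 CPM in labelled KO (-0.77 ± 0.16, SE).

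Other chaperone genes of the same libraries moved in part. HSF1 itself (Hsf1) was at 36.7, 35.7 and 36.4 CPM in WT and at 30.8, 33.3 and 30.7 CPM in labelled KO, and did not pass the test (log2 fold change -0.20 ± 0.09, edgeR adjusted p = 0.128). None of the 6 heat shock factors and regulators tested passed. Of 13 genes of HSP90 and its co-chaperones, 11 were lower and 2 higher, with a median of -0.59. Hsp90ab1, the constant form of HSP90, fell by 0.75 ± 0.11 (SE, edgeR adjusted p = 0.00173), Stip1, which links HSP70 to HSP90, by 0.81 ± 0.09 (edgeR adjusted p = 0.000649) and Chordc1, an HSP90 partner, by 1.04 ± 0.10 (edgeR adjusted p = 0.000369). Of 14 genes of the cytosolic chaperonin TRiC and of prefoldin, which feeds it, 9 were lower and none higher (median -0.40). That count was 5 without WT library 1, without WT library 2 or without labelled KO library 2.

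Chaperones of the endoplasmic reticulum (ER) were lower as well: 16 of 21 genes tested passed as lower and none as higher (median -0.54). Hspa5 (BiP), the HSP70 of the ER, had 903, 922 and 873 CPM in WT and 434, 500 and 430 CPM in labelled KO (log2 fold change -0.98 ± 0.09, edgeR adjusted p = 0.000321). Hyou1, its exchange factor, fell by 0.88 ± 0.09 on the log2 scale (edgeR adjusted p = 0.000369). Of 17 further known targets of HSF1, 8 were lower and 2 higher. Slc5a3, a myo-inositol carrier, had the smallest p of these with a log2 fold change of -1.35 ± 0.16 (edgeR adjusted p = 0.00107). Bag3, a partner of HSP70 in protein disposal, did not pass (-0.25 ± 0.12, edgeR adjusted p = 0.151).

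Some chaperones went the other way. Among 6 small heat shock proteins tested, which hold unfolded proteins without ATP, 3 were higher and none lower (median 1.13): Hspb7 (log2 fold change 1.40 ± 0.24, edgeR adjusted p = 0.00441), Hspb6 (0.998 ± 0.18, edgeR adjusted p = 0.00424) and Hspb8 (1.44 ± 0.29, edgeR adjusted p = 0.0124). These 3 are known from muscle. Hspb1 (HSP27) was at 39.6, 51.7 and 102 CPM in WT and 161, 184 and 121 CPM in labelled KO and did not pass (1.27 ± 0.39, edgeR adjusted p = 0.0545). Cirbp, an RNA-binding protein raised by cooling, was at 35.8, 33.7 and 33.1 CPM in WT and at 87.0, 74.5 and 78.5 CPM in labelled KO (log2 fold change 1.23 ± 0.11, edgeR adjusted p = 0.000296). Rbm3, another cold-inducible gene, overlapped between the groups (-0.16 ± 0.09, edgeR adjusted p = 0.218).

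Markers of other cell types moved with this comparison. Smooth muscle markers passed as higher in 9 of 11 genes, and their summed level ran from 2535 to 2860 CPM in WT and from 4276 to 5979 CPM in labelled KO. Fibroblast markers were higher in 9 of 10 genes (summed 2071 to 2211 against 3310 to 3660 CPM), endothelial markers in 8 of 8 (138 to 148 against 241 to 310.2 CPM) and neuron and glia markers in 9 of 10 (49.8 to 68.1 against 97.5 to 164 CPM, a count that was 4 without WT library 2). Epithelial markers summed to 17080 to 18108 CPM in WT and 14113 to 16578 CPM in labelled KO, and 3 of 12 were lower. Of 20 proliferation genes, 4 were lower, their sum being 1472 to 1496 CPM in WT and 565 to 1178 CPM in labelled KO. No marker was at 0 counts across a colitis group. The part of these shifts in the chaperone result was not tested.

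In the Il1f9 line, 9 of 10 chaperones were above 0 in KO against WT colitis, with a median log2 fold change of 0.28 against -0.01 over all genes. Hspe1 and Hsp90aa1 were the 2 members past the threshold, both higher in KO, against 9.59% of all genes passing as higher. Hspe1 had 142 and 95.2 CPM in WT and 251 and 252 CPM in KO, 2.12 times more on the means (log2 fold change 1.09 ± 0.20, SE). Hsp90aa1 had 360.0 and 278 CPM in WT and 463 and 534 CPM in KO (0.64 ± 0.16, SE), and it did not pass without WT library 2 (0.46) or without KO library 2 (0.52). Hspd1, at 426 and 291 CPM in WT and 558 and 583 CPM in KO, did not pass (0.67 ± 0.22, SE) although its groups did not overlap. It did pass without WT library 1 (0.97), with the DESeq2 Wald test (0.67) and with all 18 libraries in 1 fit (0.67).

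The other chaperones of this comparison overlapped, apart from Hspa4l, so that 4 of 10 members were without overlap, against 61.0% of genes without overlap in either direction. Hspa1b was at 54.3 and 71.5 CPM in WT and at 60.7 and 127 CPM in KO, a log2 fold change of 0.57 ± 0.30 (SE), and it passed without KO library 1 (1.01). Hspa1a was at 22.7 and 24.4 CPM against 17.2 and 37.9 CPM. KO library 2 was the higher of its group for all 10 members, and for Hspa1a and Hspa1b it was more than 2 times KO library 1. Hsph1 was at 114 and 103 CPM in WT and 95.6 and 125 CPM in KO (0.02 ± 0.13, SE). Hspa8 was at 1931 and 1609 CPM against 1406 and 1711 CPM (-0.18 ± 0.14), the only member with a value below 0 here.

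Beside them, 5 of 13 genes of HSP90 and its co-chaperones passed as higher and 1 as lower in Il1f9 KO colitis, with Ptges3 (p23) at 0.57 (edgeR adjusted p = 0.00708) and Fkbp5 at -0.82 (edgeR adjusted p = 0.00679). The total of 6 was 1 without WT library 2. TRiC and prefoldin genes were higher in 9 of 14, and in 3 without WT library 2 or without KO library 1. Hsp90ab1 was 0.47 higher (edgeR adjusted p = 0.0258) and lost this call without WT library 2, without KO library 1 and without KO library 2. Hspa5 was lower (-0.62 ± 0.11, edgeR adjusted p = 0.00403). The cold-inducible genes Rbm3 (0.52, edgeR adjusted p = 0.0113) and Cirbp (0.44, edgeR adjusted p = 0.0457) were higher. The Rbm3 call was lost without WT library 2 or KO library 2, and the Cirbp call without WT library 1, WT library 2 or KO library 1. Hsf1 (-0.28), Hspb1 (-0.01) and Bag3 (0.37) did not pass.

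Markers of other cell types moved with this comparison too. Smooth muscle markers were higher in 10 of 11 genes (summed 1952 to 3283 CPM in WT and 5160 to 5840 CPM in KO), and 3 passed without KO library 1. Leukocyte markers were lower in 8 of 13 tested (876 to 1213 against 131 to 202 CPM). Fibroblast markers were lower in 6 of 10 (2832 to 4042 against 1596 to 2144 CPM) and endothelial markers in 4 of 8 (199 to 257 against 124 to 137 CPM), and both counts were 2 without KO library 2. Epithelial markers were higher in 4 of 12 (13741 to 17424 against 20543 to 20772 CPM), and in 1 without WT library 2, KO library 1 or KO library 2. The part of these shifts in the chaperone values was not tested.

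The 2 effects in colitis were compared directly in 1 model. The difference between them, the Il1f9 KO effect minus the labelled Il1f5 KO effect, was above 0 and past the threshold for 10 of 10 members, against 12.0% of all genes. It was 3.64 ± 0.40 (SE, log2 scale) for Hspa1b, 3.31 ± 0.47 for Hspa1a, 1.86 ± 0.25 for Hspe1, 1.77 ± 0.21 for Hsp90aa1 and 1.75 ± 0.17 for Hsph1. For Hspd1, Hspa4l, Dnajb1 and Dnaja1 it lay between 1.34 and 1.58, and for Hspa8 it was 0.79 ± 0.18, with its call lost without Il1f9 WT library 2 or Il1f9 KO library 2. Hsp90ab1 (1.22 ± 0.17, edgeR adjusted p = 0.00115), Rbm3 (0.68 ± 0.15, edgeR adjusted p = 0.00904) and Bag3 (0.62 ± 0.19, edgeR adjusted p = 0.0358) differed in the same way, and Cirbp in the opposite way, by -0.79 ± 0.18 (edgeR adjusted p = 0.0105). Hspa5 (0.36), Hsf1 (-0.08) and Hspb1 (-1.28) did not pass. The same difference was below 0 and past the threshold for 8 of 8 endothelial, 9 of 10 fibroblast and 8 of 13 leukocyte markers, and the part of these shifts was not tested.

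**Figure D2:**
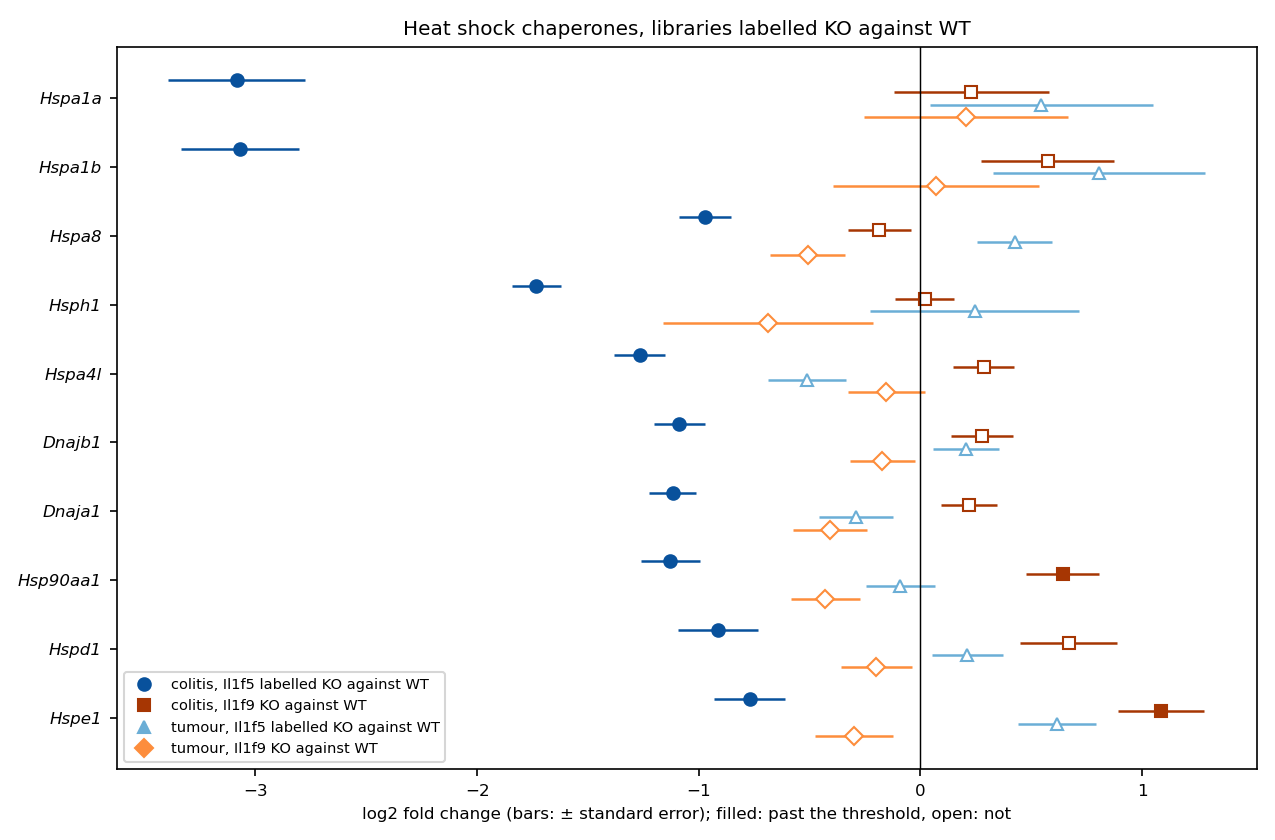
Log2 fold change of KO against WT (horizontal axis, bars ± SE) for each chaperone in colitis and tumours of both lines, filled where past the threshold. The colitis Il1f5 points lie from -3.08 to -0.77 and all are filled, while in tumours no point is filled.

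The same colitis libraries also gave the level of the chaperones in each line. WT mice of the lines differed: every member was lower in Il1f9 WT than in Il1f5 WT without overlap, against 23.0% of all genes, and 7 passed as lower, against 1.68% of all genes. These were Hspa1b (-2.01 ± 0.29, SE; 62.9 ± 12.2 CPM with n = 2 against 254 ± 30.2 CPM with n = 3), Hspa1a (-1.70 ± 0.33), Hspa4l (-0.997 ± 0.13), Hsph1 (-0.93 ± 0.12), Dnajb1 (-0.86 ± 0.13), Hsp90aa1 (-0.73 ± 0.15) and Dnaja1 (-0.65 ± 0.12). Hspd1 (-0.72 ± 0.20), Hspe1 (-0.59 ± 0.18) and Hspa8 (-0.38 ± 0.13) did not pass. The count fell to 2 without Il1f9 WT library 2 and to 4 without Il1f5 WT library 1, and the calls of Hspa1a and Hspa1b were lost without either Il1f9 WT library. The Hsp90aa1 call was lost without any 1 of 4 libraries and the Dnaja1 call without any 1 of 3, while Hspd1 (-1.02) and Hspe1 (-0.91) passed without Il1f9 WT library 1. All genes called were 902 here and 118 without Il1f9 WT library 2.

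Il1f9 WT colitis thus lay between the Il1f5 groups without overlap for 6 of 10 members, against 2.38% of all genes. Hsph1, for instance, was at 188 to 229 CPM in Il1f5 WT, at 103 and 114 CPM in Il1f9 WT and at 60.7 to 64.8 CPM in labelled Il1f5 KO, with no overlap among the 3 groups. Hspa1b showed the same order, at 221 to 279, at 54.3 and 71.5 and at 27.9 to 33.0 CPM. For Dnajb1, Hsp90aa1, Hspd1 and Hspe1 the Il1f9 WT libraries overlapped the labelled Il1f5 KO libraries. The comparisons of the lines share their groups with the KO comparisons above and are not independent of them.

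Between the KO groups, all 10 members were higher in Il1f9 KO than in labelled Il1f5 KO colitis, and 10 of 10 passed, against 11.2% of all genes passing as higher. The values ran from 0.41 ± 0.13 (SE) for Hspa8 to 1.62 ± 0.33 for Hspa1a and 1.63 ± 0.27 for Hspa1b. Without Il1f9 KO library 2, 4 members passed. Hspa1b then stood at 0.98 and still passed, whereas Hspa1a (0.91), Hspd1 (0.81), Dnaja1 (0.48), Hspa4l (0.32), Dnajb1 (0.27) and Hspa8 (0.24) did not. The Hspa8 call was lost without any 1 of the 5 libraries compared, the Hspd1 call also without labelled Il1f5 KO library 1 or Il1f9 KO library 1, and the Dnajb1 call also without labelled Il1f5 KO library 1.

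Other genes separated these KO groups as well. TRiC and prefoldin genes were higher in Il1f9 KO colitis in 13 of 14 and ER chaperones in 14 of 21, counts that were 0 and 7 without Il1f9 KO library 2. Hsp90ab1 (0.78, edgeR adjusted p = 0.00249) and Hspa5 (0.44, edgeR adjusted p = 0.0122) were higher and Cirbp lower (-0.64, edgeR adjusted p = 0.00677), and the calls of Hspa5 and Cirbp were lost without Il1f9 KO library 2. Hsf1 (0.005), Hspb1 (-0.48), Bag3 (0.16) and Rbm3 (-0.02) did not pass. Fibroblast markers were lower in Il1f9 KO in 9 of 10 (1596 to 2144 against 3310 to 3660 CPM, and 3 without Il1f9 KO library 2), endothelial markers in 6 of 8 (124 to 137 against 241 to 310.2 CPM) and clock genes in 11 of 16, with 3 higher (413 to 415 against 691 to 927 CPM). Epithelial markers were higher in 7 of 12 (20543 to 20772 against 14113 to 16578 CPM), and in 1 without either Il1f9 KO library. The part of these shifts in the chaperone values was not tested.

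Genes outside the chaperones also separated the WT lines in colitis. Clock genes were lower in Il1f9 WT in 7 of 16 and higher in 2, led by Dbp, a clock output gene (log2 fold change -3.45 ± 0.27, edgeR adjusted p = 0.000303; 27.3 to 39.2 CPM in Il1f5 WT, 2.52 and 3.20 CPM in Il1f9 WT), and Nr1d2 (-1.37, edgeR adjusted p = 0.00231). Leukocyte markers were higher in 5 of 13, with the macrophage gene Adgre1 at 1.81 (edgeR adjusted p = 0.00382) and summed levels of 876 to 1213 CPM against 206 to 308 CPM, and 3 were called without Il1f9 WT library 2. Fibroblast markers were higher in 4 of 10 (2832 to 4042 against 2071 to 2211 CPM) and endothelial markers in 4 of 8 (199 to 257 against 138 to 148 CPM), both in 0 without Il1f9 WT library 2 or Il1f5 WT library 1 or 2. The part of these markers was not tested. The time of day of sampling is not in the labels, and its part in the chaperone levels was not tested. Of the other chaperone lists, HSP90 and its co-chaperones had 3 of 13 lower, among them Chordc1 (-0.64, edgeR adjusted p = 0.0135), and 0 without Il1f9 WT library 2 or Il1f5 WT library 1 or 2. TRiC and ER chaperones had none past the threshold. Rbm3 was lower (-0.70, edgeR adjusted p = 0.00675, lost without Il1f9 WT library 2), while Hsf1 (0.08), Hsp90ab1 (-0.43), Hspa5 (0.09), Hspb1 (0.80), Bag3 (-0.46) and Cirbp (0.14) did not pass.

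**Figure D3:**
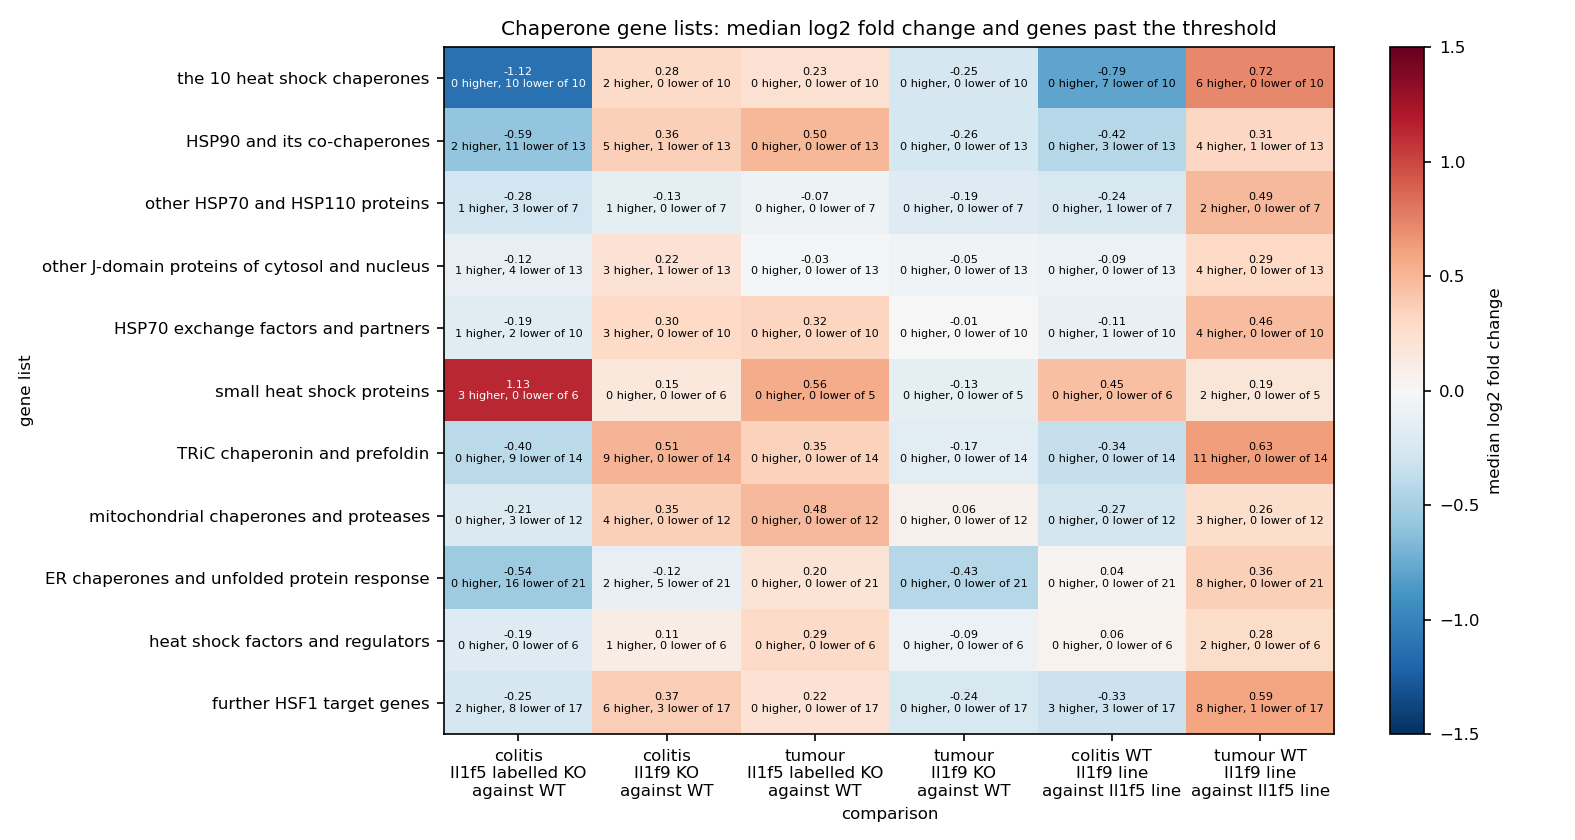
Median log2 fold change (colour and upper figure) of each chaperone list in 6 comparisons, with the numbers of genes past the threshold. In colitis of the Il1f5 line the ER chaperones have 16 of 21 lower and the small heat shock proteins 3 of 6 higher, and in tumours between KO and WT no list has a gene past the threshold.

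In tumours, 7 of 10 chaperones were above 0 in the labelled Il1f5 KO group against WT, none past the threshold. Hspa1b was at 18.9 and 22.3 CPM in Il1f5 WT tumours and at 36.4 and 36.1 CPM in labelled Il1f5 KO tumours, a log2 fold change of 0.81 ± 0.48 (SE). Hspa1a was at 4.62 and 4.61 CPM in WT and 7.28 and 6.30 CPM in labelled KO (0.55 ± 0.50). Hspe1 was at 118 and 164 CPM against 229 and 208 CPM (0.62 ± 0.18). All 3 were higher in both labelled KO tumours than in both WT tumours, but 0 members passed edgeR's test, against 0.028% of all genes.

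At an unadjusted p under 0.05, 3 members differed in that comparison, against 23.0% of all genes, and the DESeq2 Wald test called 1, against 6.89% of genes. For all 10 members the libraries did not overlap, against 63.7% of genes without overlap in either direction. Hspa8 was at 2128 and 1934 CPM in WT and at 2871 and 2628 CPM in labelled KO (0.43 ± 0.17, SE). Hsph1 was at 129.7 and 129.6 CPM against 152 and 158 CPM (0.25 ± 0.47), and Dnajb1 at 66.1 and 62.2 CPM against 77.9 and 71.1 CPM (0.21 ± 0.15). Hspd1 was at 348 and 432 CPM against 463 and 447 CPM. On the other side, Hspa4l was lower at 89.3 and 84.4 CPM in WT against 54.9 and 67.7 CPM (-0.51 ± 0.18), Dnaja1 at 274 and 264 CPM against 209 and 234 CPM (-0.29 ± 0.17) and Hsp90aa1 at 649 and 647 CPM against 613 and 613 CPM (-0.09 ± 0.15). Of the genes named beside the members, Hsp90ab1 (0.69), Hsf1 (0.51), Hspb1 (0.60), Bag3 (0.44), Hspa5 (-0.14), Rbm3 (-0.12) and Cirbp (-0.31) did not pass, and no marker list had a gene past the threshold.

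The Il1f5 effect was compared between the tissues in a model of all 18 libraries. The tumour effect minus the colitis effect was above 0 and past the threshold for 10 of 10 members, against 10.8% of all genes. It was 3.89 ± 0.56 (SE, log2 scale) for Hspa1b, 3.64 ± 0.63 for Hspa1a, 1.99 ± 0.44 for Hsph1, 1.41 ± 0.19 for Hspa8 and 1.40 ± 0.25 for Hspe1, and between 0.76 and 1.30 for the other 5. The Hsph1 and Hspd1 calls were lost without Il1f5 WT tumour 1 or labelled KO tumour 1, and the Hspa4l call without Il1f5 WT tumour 1 or 2 or labelled KO tumour 2. Hsp90ab1 (1.45 ± 0.17, edgeR adjusted p = 0.000655), Hsf1 (0.72 ± 0.15, edgeR adjusted p = 0.00702; lost without labelled KO tumour 1), Bag3 (0.70 ± 0.22, edgeR adjusted p = 0.041; lost without any 1 of 7 libraries) and Hspa5 (0.85 ± 0.19, edgeR adjusted p = 0.0088) differed in the same direction. Cirbp differed in the opposite direction (-1.52 ± 0.21, edgeR adjusted p = 0.00165), and Rbm3 (0.06) and Hspb1 (-0.66) did not pass. ER chaperones passed as higher in 15 of the 21 genes, and TRiC and prefoldin genes in 11 of 14, or in 3 without tumour Il1f5 WT library 1 or labelled KO library 1.

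Between Il1f9 KO and Il1f9 WT tumours 0 members passed, and the 2 KO tumours were unlike each other for Hspa1a, Hspa1b and Hsph1. These 2 tumours were also unlike each other beyond the chaperones. The chi-square of their counts was 95.51 per gene, against 6.19 to 39.12 for the other pairs of libraries within a group. Hspa1b was at 171 and 167 CPM in WT and at 268 and 89.5 CPM in KO (log2 fold change 0.07 ± 0.46, SE). Hspa1a was at 46.7 and 46.8 CPM in WT and at 82.0 and 26.3 CPM in KO (0.21 ± 0.46). Hsph1 was at 159 and 169.6 CPM in WT and at 155 and 49.9 CPM in KO (-0.69 ± 0.47). KO tumour 2 was below both WT tumours for these 3 genes, whereas KO tumour 1 was above both for Hspa1a and Hspa1b.

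The remaining members of that comparison were mostly lower in KO. Hspa8 had 4246 and 4377 CPM in WT and 3349 and 2779 CPM in KO (-0.51 ± 0.17, SE), and Dnaja1 453 and 491 CPM against 400.4 and 319 CPM (-0.41 ± 0.17). Hsp90aa1 had 681 and 814 CPM against 590.4 and 533 CPM (-0.43 ± 0.16). Dnajb1 was at 201 and 168 CPM in WT and at 168 and 163 CPM in KO, Hspa4l at 84.5 and 95.9 CPM against 90.7 and 73.2 CPM, Hspd1 at 333 and 374 CPM against 321 and 303 CPM, and Hspe1 at 222 and 207 CPM against 172 and 181 CPM. No member passed edgeR's test, against 0.0168% of all genes. At an unadjusted p under 0.05, 3 members differed, against 8.7% of genes, and the DESeq2 Wald test called 0, against 0.885% of genes. Hsp90ab1 (-0.34), Hsf1 (-0.31), Hspa5 (-0.84), Hspb1 (-0.99), Bag3 (-0.48), Cirbp (0.33) and Rbm3 (0.04) did not pass. Without KO tumour 1, Hsph1 passed at -1.77. KO tumour 2 also differed in the cold-inducible genes, with Cirbp at 82.7 CPM (59.6 in KO tumour 1, 54.3 and 57.2 in WT) and Rbm3 at 1039.6 CPM (511 in KO tumour 1, 660.3 and 825 in WT). Its smooth muscle markers summed to 962 CPM, against 145 CPM in KO tumour 1 and 161 to 245 CPM in WT, and the part of this in the chaperone values was not tested.

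The Il1f9 and Il1f5 effects in tumours differed for 0 members past the threshold, against 0.0784% of all genes. At an unadjusted p under 0.05, 2 members differed, against 17.2% of genes, and the DESeq2 Wald test called 1, against 3.12% of genes. The 7 genes named beside the members did not pass, with values from -1.60 (Hspb1) to 0.64 (Cirbp). With all tumours the difference of effects was -0.93 for Hsph1, -0.34 for Hspa1a and -0.73 for Hspa1b. Without Il1f9 KO tumour 1, which leaves 1 library in that group, it was -2.02, -1.44 and -1.79. Between tissues, the Il1f9 effect was lower in tumours than in colitis for 2 members past the threshold, Hspe1 (-1.37 ± 0.28, SE) and Hsp90aa1 (-1.06 ± 0.23), against 0.82% of all genes. Neither passed without colitis Il1f9 WT library 2, colitis Il1f9 KO library 1 or 2, or tumour Il1f9 WT library 2. Hsp90ab1 (-0.79, edgeR adjusted p = 0.0363) was lower as well, and its call was lost without any 1 of 5 libraries, while Hsf1 (-0.02), Hspa5 (-0.20), Hspb1 (-0.96), Bag3 (-0.84), Cirbp (-0.09) and Rbm3 (-0.45) did not pass.

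The clearest difference among tumours was between the lines, where line and table cannot be told apart. Hspa1a was 10.1 times and Hspa1b 8.23 times higher in Il1f9 WT than in Il1f5 WT tumours on the means (46.7 ± 0.0734 against 4.61 ± 0.00653 CPM, and 169 ± 3.05 against 20.6 ± 2.43 CPM, n = 2 each). On the log2 scale the differences were 3.36 ± 0.52 and 3.06 ± 0.51 (SE). Dnajb1 was at 201 and 168 CPM in Il1f9 WT against 66.1 and 62.2 CPM in Il1f5 WT (1.54 ± 0.15), Hspa8 differed by 1.10 ± 0.17, Dnaja1 by 0.83 ± 0.17 and Hspe1 by 0.62 ± 0.18. These 6 members passed as higher, against 16.8% of all genes, and 2 passed without Il1f5 WT tumour 1 (Dnajb1 and Hspa8). The calls of Hspa1b and Dnaja1 were lost without either Il1f5 WT tumour, and the Hspe1 call was lost without Il1f5 WT tumour 1 or either Il1f9 WT tumour. Hsph1 (0.36 ± 0.47), Hsp90aa1 (0.22 ± 0.15), Hspa4l (0.07 ± 0.17) and Hspd1 (-0.12 ± 0.16) did not pass.

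For the WT groups, that direction was the reverse of colitis, where both lines share 1 table. The inducible HSP70 genes were lower in Il1f9 WT than in Il1f5 WT colitis and higher in Il1f9 WT than in Il1f5 WT tumours, and the difference between these line contrasts was not tested. Between KO groups in colitis, Hspa1a (1.62) and Hspa1b (1.63) were instead higher in the Il1f9 line, as in tumours. Between KO tumours of the lines, Hspa1a (3.02 ± 0.51, SE), Hspa1b (2.32 ± 0.49), Dnajb1 (1.17 ± 0.15) and Dnaja1 (0.71 ± 0.17) passed as higher in Il1f9 KO, 4 members against 12.2% of genes. Hspd1 passed as lower (-0.53 ± 0.16), 1 member against 9.83% of genes. The Hspd1 call was lost without Il1f9 KO tumour 2 or either labelled Il1f5 KO tumour. The Hspa1a, Hspa1b and Dnaja1 calls were lost without either labelled Il1f5 KO tumour. Without labelled Il1f5 KO tumour 1 or 2, 1 member passed, and without Il1f9 KO tumour 1 the differences of Hspa1a and Hspa1b fell to 1.94 and 1.29. Rbm3 (1.82, edgeR adjusted p = 0.0072) and Cirbp (0.65, edgeR adjusted p = 0.0284) were higher and Hsf1 lower (-1.23, edgeR adjusted p = 0.00277) in Il1f9 KO tumours. The Rbm3 and Cirbp calls were lost without either labelled Il1f5 KO tumour, and the Cirbp call also without Il1f9 KO tumour 2. Hsp90ab1 (-0.50), Hspa5 (0.48), Hspb1 (0.23) and Bag3 (0.27) did not pass. Immediate early genes were higher in 12 of 19 (4114 to 4405 against 1988 to 2339 CPM), epithelial markers in 5 of 12 with 1 lower (27307 to 27418 against 14466 to 15980 CPM) and leukocyte markers in 5 of 13 (1004.2 to 1744 against 407 to 453 CPM). Each of these 3 lists had 2 genes called without labelled Il1f5 KO tumour 1, and the part of these shifts was not tested.

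Other genes separated the tumours of the lines too. Immediate early genes, which respond to stimuli and to handling within minutes, were higher in Il1f9 WT tumours in 16 of 19, with summed levels of 5393 to 7066 CPM against 1504 to 1915 CPM, led by Ier2 (1.86, edgeR adjusted p = 0.000471). TRiC and prefoldin genes were higher in 11 of 14 (2 without Il1f5 WT tumour 1), with Vbp1 at 1.47 (edgeR adjusted p = 0.00141), and further HSF1 targets in 8 of 17, led by Hmox1 (3.08, edgeR adjusted p = 0.000528). Bag3 (1.19 ± 0.19, edgeR adjusted p = 0.00356), Hspb8 (2.35, edgeR adjusted p = 0.000718), Hspa5 (1.18 ± 0.20, edgeR adjusted p = 0.004) and Rbm3 (1.66 ± 0.31, edgeR adjusted p = 0.00735, lost without Il1f5 WT tumour 1) were higher. So were Hspb1 (1.83, edgeR adjusted p = 0.01003; lost without either Il1f5 WT tumour or Il1f9 WT tumour 1) and Hsp90ab1 (0.53, edgeR adjusted p = 0.0349; lost without any 1 of the 4 tumours compared). Hsf1 (-0.42, edgeR adjusted p = 0.073) and Cirbp (0.02) did not pass. Leukocyte markers were higher in 5 of 13, and summed to 1807 to 3967 CPM in Il1f9 WT and 293 to 319.9 CPM in Il1f5 WT tumours. Epithelial markers were higher in 6 of 12 and lower in 1 (20445 to 24418 against 12121 to 14010 CPM), with 2 of the 7 called without Il1f5 WT tumour 1 or Il1f9 WT tumour 1. Smooth muscle markers were lower in 3 of 11 (161 to 245 against 363 to 368 CPM), and in 0 without any 1 of the 4 tumours. The part of these shifts in the chaperone values was not tested.

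**Figure D4:**
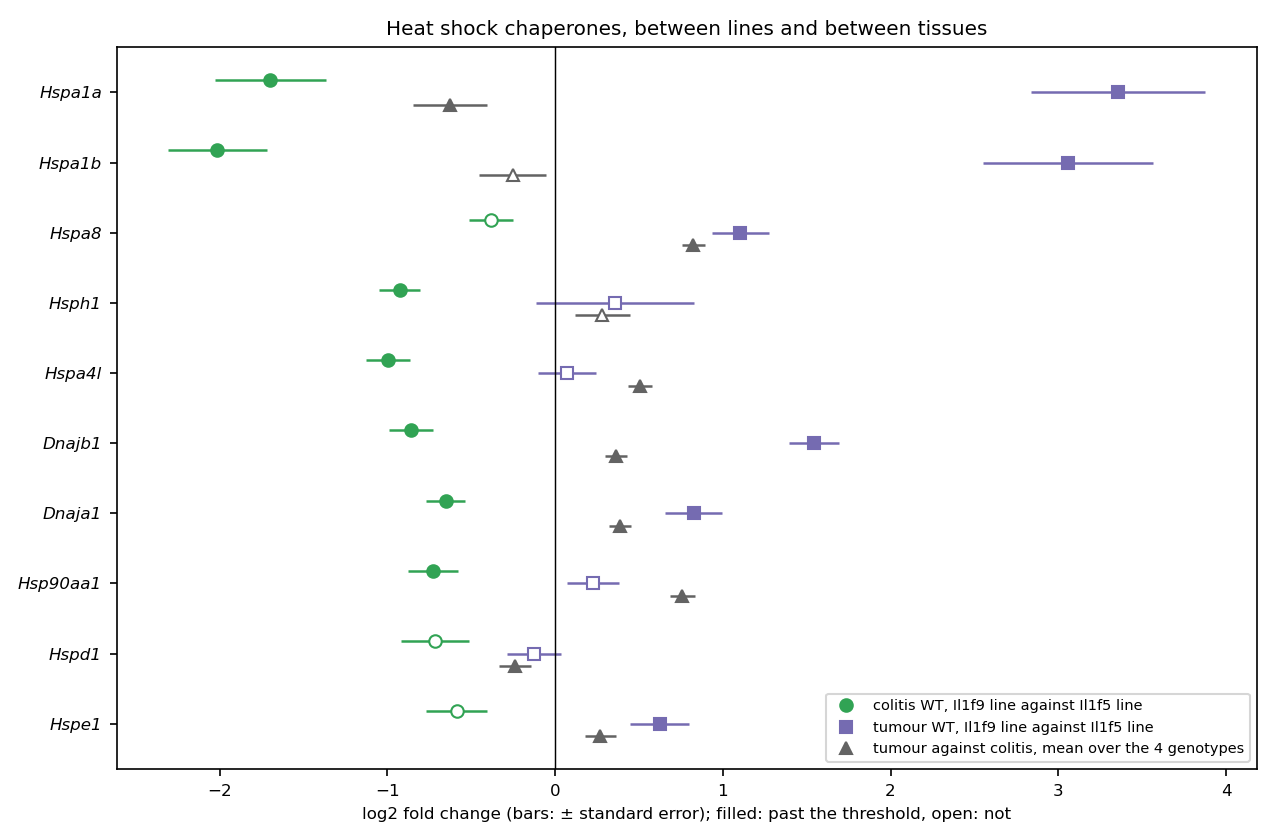
Log2 fold change (horizontal axis, bars ± SE) of Il1f9 WT against Il1f5 WT in colitis (circles) and tumours (squares), and of tumours against colitis over all genotypes (triangles), filled where past the threshold. Hspa1a sits at -1.70 in colitis and at 3.36 in tumours.

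Averaged over the 4 genotypes, tumours had more Hspa8 (0.83 ± 0.07, SE, log2 scale), Hsp90aa1 (0.76 ± 0.08), Hspa4l (0.51 ± 0.07), Dnaja1 (0.39 ± 0.07), Dnajb1 (0.36 ± 0.07) and Hspe1 (0.27 ± 0.09) than colitis. These 6 passed as higher, against 36.5% of all genes. The genotypes did not all go this way. In Il1f5 WT, mean CPM was lower in tumours for Hspa8 (2031 against 2308), Hspa4l (86.9 against 93.5) and Dnaja1 (269 against 356). Dnajb1 (64.1 against 132) and Hspe1 (141 against 178) were lower there too. Hspe1 was also lower in Il1f9 KO tumours (177 against 251 CPM). In the other genotypes the means of these genes were higher in tumours. Hspa1a (-0.62 ± 0.22) and Hspd1 (-0.24 ± 0.10) passed as lower, 2 members against 36.1% of all genes. The Hspa1a call was lost without any 1 of 5 libraries and the Hspd1 call without any 1 of 11. Mean Hspa1a was lower in tumours of Il1f5 WT (4.61 against 76.4 CPM) and of labelled Il1f5 KO (6.79 against 9.004 CPM). It was higher in tumours of Il1f9 WT (46.7 against 23.6 CPM) and of Il1f9 KO (54.2 against 27.5 CPM). Mean Hspd1 was higher in tumours of labelled Il1f5 KO only (455 against 313 CPM). Hsph1 (0.28 ± 0.16) and Hspa1b (-0.25 ± 0.20) did not pass. When a fold change of 2 times or more was also required, 0 members passed, against 32.2% of all genes. Hsp90ab1 (0.64, edgeR adjusted p = 1.11e-07), Hspa5 (0.63, edgeR adjusted p = 6.06e-07), Rbm3 (1.49, edgeR adjusted p = 1.99e-08), Cirbp (0.23, edgeR adjusted p = 0.0127) and Bag3 (0.19, edgeR adjusted p = 0.0458) were higher in tumours, the Bag3 call being lost without any 1 of 11 libraries. Hsf1 (-0.03) and Hspb1 (-0.27) did not pass. Smooth muscle markers, a sign of the muscle layer in the colon pieces, were lower in tumours in 11 of 11 genes (median -3.44), as were 4 of 6 small heat shock proteins (median -2.04).

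Within each pair of neighbouring genes the ratio of counts was not constant. Hspa1b had 2.39 to 5.73 times the counts of Hspa1a over the 18 libraries, with the highest ratios in the labelled Il1f5 KO tumours (5.00 and 5.73) and Il1f5 WT tumours (4.08 and 4.84). Hspa1a had few counts there, 92 in its lowest library. The split of reads between Hspa1a and Hspa1b is uncertain, and its part in this ratio was not tested. Hspd1 had 3.03 to 3.48 times the counts of Hspe1 in Il1f5 WT colitis, 2.22 and 2.32 times in Il1f9 KO colitis and 1.50 to 1.81 times in Il1f9 WT tumours. In Il1f9 KO colitis the log2 fold change was 1.09 ± 0.20 (SE) for Hspe1 and 0.67 ± 0.22 for Hspd1, and between WT tumours of the lines 0.62 ± 0.18 and -0.12 ± 0.16. The difference between the genes of the pair was not tested.

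**Figure D5:**
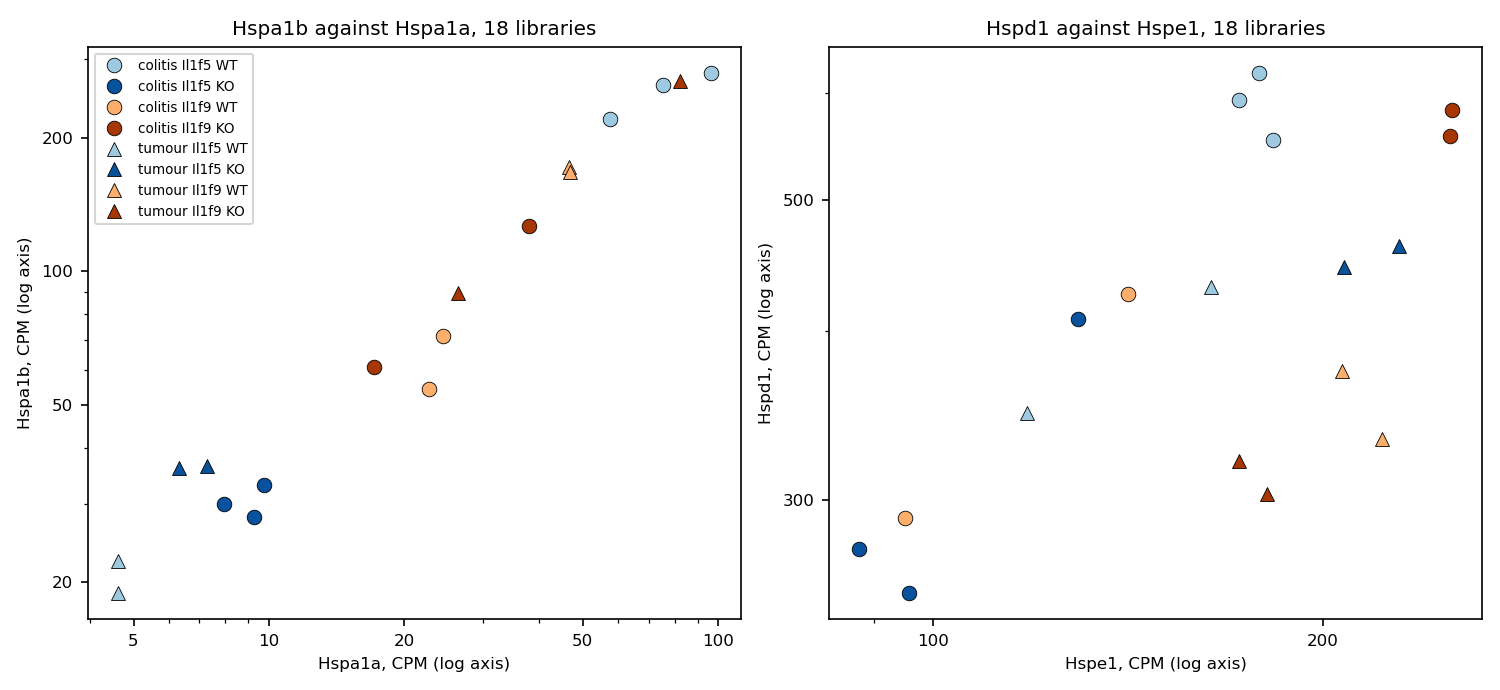
Hspa1b against Hspa1a (left) and Hspd1 against Hspe1 (right) in CPM, log axes, 1 point per library, circles colitis and triangles tumours. The HSP70 points fall along 1 line from 4.61 to 96.6 CPM of Hspa1a, while Il1f9 tumours lie below the other libraries for Hspd1 at a given Hspe1.

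The members went together in colitis and less so in tumours. Pearson's r of a member's log2 CPM with the mean of all 10 members ran from 0.71 (Hspe1) to 0.998 (Dnaja1) over the 10 colitis libraries. Over the 8 tumour libraries it was 0.98 for Hspa1b and 0.96 for Hspa1a but 0.22 for Hsph1 and -0.51 for Hspd1. Each member is part of that mean, and the libraries share groups, so these values are a description.

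Of 10592 genes with a mean log2 CPM of at least 3 outside all lists, those whose pattern was most like the members' mean in both tissues were Ccdc117 (r = 0.94 over 10 colitis and 0.96 over 8 tumour libraries), Rab6a (0.94 and 0.94), Ubqln1 (0.93 and 0.96), Nup35 (0.92 and 0.94), Pde12 (0.91 and 0.94) and Eif2s1 (0.91 and 0.93). Ccdc117 ranged from 28.1 to 57.1 CPM in colitis and from 26.4 to 47.2 CPM in tumours. Rab6a encodes a GTPase of Golgi traffic, Ubqln1 a ubiquitin-binding carrier of proteasome clients, and Eif2s1 the alpha subunit of the initiation factor eIF2.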

How the data were processed

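Poly(A) RNA of 18 mouse libraries was read as pairs of 150 bases. Per the submitters' processing notes, reads were trimmed with Trim Galore 0.6.4, aligned with HISAT2 2.0.5 and counted with featureCounts 2.0.0. The genome build was not given in the sources used here. In 3 tables, the authors deposited unscaled counts for each gene as whole numbers, and their FPKM values, used here only to compare levels between genes.

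The tables were joined by gene identifier. Counts were scaled by TMM, filtered with filterByExpr by group and tested with the robust quasi-likelihood F test of edgeR 4.0.16 (R 4.3.3), with 1 mean for each group. Contrasts within a tissue were fitted on its 10 or 8 libraries and contrasts between tissues on all 18, with Benjamini-Hochberg adjustment over all genes tested and a threshold of 0.05. The 13 comparisons and 20 gene lists were fitted on the whole table. The members and lists were chosen with earlier results of these data known. Beside the members, Hsf1, Hsp90ab1, Hspa5, Hspb1, Bag3, Cirbp and Rbm3 were always reported. Up to 3 called genes with the smallest p of each chaperone list and up to 2 of each control list could be named, with the 6 genes most like the members. Of the listed genes, 1 with 2 identifiers was left out.

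The scripts were tested on simulated data with known changes. Alternatives were DESeq2 1.42.0 size factors and its Wald test, no filter, a replicate block, a fold threshold of 2 times, other sets of libraries, and each library left out in turn. Figures were drawn in matplotlib 3.10.9 from tables made by pandas 2.3.3 and numpy 2.4.6 under Python 3.11.15.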

Additional observations from a re-analysis of the deposited data

Results flagged for a closer look

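In colitis the effect of the label KO differed between the lines for all 10 chaperones, tested as an interaction (Il1f9 effect minus Il1f5 effect), and for 4 genes named beside them. These were Hsp90ab1 (1.22 on the log2 scale), Bag3 (0.62), Cirbp (-0.79) and Rbm3 (0.68). The Bag3 call was lost when any 1 of 7 libraries was left out. The Hspa8 call was lost without Il1f9 WT library 2 (0.64) or Il1f9 KO library 2 (0.62). All 10 chaperones passed as higher, against 12.0% of all genes, and they were chosen from counts of these same libraries.

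The Il1f5 effect differed between tumours and colitis (tumour minus colitis) for all 10 chaperones and for Hsf1 (0.72), Hsp90ab1 (1.45), Hspa5 (0.85), Bag3 (0.70) and Cirbp (-1.52). All 10 chaperones passed as higher, against 10.8% of all genes. The Hsph1 and Hspd1 calls were lost without Il1f5 WT tumour 1 or labelled Il1f5 KO tumour 1. The Hspa4l call was lost without Il1f5 WT tumour 1 or 2 or labelled Il1f5 KO tumour 2. The Hsf1 call was lost without labelled Il1f5 KO tumour 1 (0.62). The Bag3 call was lost with DESeq2 size factors (0.63), with the DESeq2 Wald test (0.63) and without any 1 of 7 libraries (0.53 to 0.73), namely colitis WT 1, 2 and 3, colitis labelled KO 3, tumour WT 1 and 2 and tumour labelled KO 1. The Il1f9 effect differed between the tissues for 2 chaperones, Hspe1 and Hsp90aa1, and for Hsp90ab1 (-0.79), whose call was lost without any 1 of 5 libraries. The 2 chaperones passed as lower, against 0.82% of all genes, and the call of each was lost without any 1 of 4 libraries.

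The groups of 2 and 3 libraries are too small for a test of single outlying libraries.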

How the results depend on the processing

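Over 1620 recomputed fold changes of the members, 1460 kept direction and side of the threshold, 98 lost the call, 43 gained one, none called reversed, and 19 values that were not called changed sign. In colitis the count of members was 10 under every setting but 1 for the Il1f5 line (7 when a fold change of 2 times or more was also required). With that threshold the counts were 1 for Il1f9 KO colitis, 2 for the WT lines in colitis, 4 for the KO lines in colitis, 3 for the KO lines in tumours and 0 between tissues, and all genes called were 1371 in Il1f5 colitis and, in the order just given, 1155, 339, 903, 1886 and 6280. In Il1f5 tumours, DESeq2's Wald test gave 1 member, no filter 2, all 18 libraries together 2 and only the groups compared 1, and all genes called went from 5 to between 5 and 2909 over these fits (2 to 7 with a library left out). In Il1f9 tumours no filter gave 1 member, and all genes called went from 3 to between 0 and 791. The difference of effects in tumours gave 1 with DESeq2, 3 without a filter and 1 with all libraries (all genes 14, from 4 to 1362). The KO lines in tumours gave 1 with only the groups compared (all genes 1986 in place of 3937). The Il1f9 effect between tissues gave 4 with DESeq2, 4 without a filter and 0 with only the 4 groups of the line. All genes called there were 1308, 1823 and 1, in place of 482. The cause of these differences was not tested.

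With each library left out in turn, members called ranged from 10 to 10 (Il1f5 colitis), 1 to 3 (Il1f9 colitis), 2 to 7 (WT lines, colitis), 4 to 9 (KO lines, colitis), 9 to 10 (difference, colitis), 0 to 0 (Il1f5 tumours), 0 to 1 (Il1f9 tumours), 2 to 5 (WT lines, tumours), 1 to 6 (KO lines, tumours), 0 to 3 (difference, tumours), 6 to 9 (tissues), 7 to 10 (Il1f5 effect between tissues) and 0 to 4 (Il1f9 effect between tissues). All genes called then ranged from 1964 to 5586 (4516 with all libraries) in Il1f5 colitis, 1393 to 3396 (3581) in Il1f9 colitis, 118 to 1126 (902) for the WT lines and 885 to 5029 (3904) for the KO lines in colitis, 1670 to 2891 (5096) and 643 to 4672 (3937) for those in tumours, 561 to 3969 (3524) for the Il1f5 effect and 49 to 1107 (482) for the Il1f9 effect between tissues. For the difference of effects in each tissue, Il1f9 tumours and the tissues, the members' ranges are not set against all genes here. A library alone in its group is assumed to vary like the other groups.

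Replicate numbers did not pair the libraries. The correlation of deviations between same-numbered KO and WT libraries ran from -0.32 to 0.05 over 10804 genes, and 1 of 3 labelled Il1f5 KO colitis libraries was closest to its own number. With the replicate block, 4 members were called between the WT lines in colitis in place of 7, and all genes called there were 303 in place of 902. In Il1f9 colitis the block also called Hspd1 (0.69).

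Depth limits Hspa1a most, which had 92 counts in its lowest library.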
